A study of Mus musculus with 2 samples.

Results

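The 10 genes described here are used to mark alternatively activated and tissue-resident macrophages: Mrc1, Cd163, Folr2, Lyve1, Chil3, Retnla, Gas6, Pf4, Selenop and Timd4. They were chosen by gene symbol from the 32285 genes listed in both count matrices, and all 10 were found. The matrices came from pancreatic tumours of KPPC mice, a strain used as a model of pancreatic cancer, with 1 single-cell 10x library from vehicle-treated and 1 from takinib-treated animals. All mice were 6 weeks old, treatment lasted 14 days in both groups, and takinib, an inhibitor of the kinase TAK1, was dosed at 50 mg/kg. The alleles and Cre driver behind the name KPPC, the number and sex of the mice in each library and the vehicle itself are not given in the sources used here.

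Macrophages take up debris and shape tissue repair, and their genes differ with the signals around them. In mice, interleukin 4 and interleukin 13 signal through STAT6 and raise Mrc1, Chil3 and Retnla, genes classically read as alternative activation. Resident macrophages, which persist in tissue with little input from blood monocytes, often carry Folr2, Lyve1, Timd4 and Cd163 and secrete Gas6, Pf4 and Selenop. TAK1 is needed for inflammatory signals to reach the factors NF-kB and AP-1 in macrophages.

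All 10 genes are protein coding, and their identifiers in the files matched the GENCODE annotation of mouse build GRCm38. The receptor genes are Mrc1 (ENSMUSG00000026712, chr2:14229392-14332057, plus strand, 30 exons), Cd163 (ENSMUSG00000008845, chr6:124304656-124330527, plus strand, 17 exons), Folr2 (ENSMUSG00000032725, chr7:101839988-101857194, minus strand, 5 exons), Lyve1 (ENSMUSG00000030787, chr7:110850607-110863239, minus strand, 6 exons) and Timd4 (ENSMUSG00000055546, chr11:46810800-46844332, plus strand, 9 exons). The genes of secreted proteins are Chil3 (ENSMUSG00000040809, chr3:106147554-106167564, minus strand, 11 exons), Retnla (ENSMUSG00000061100, chr16:48842551-48844461, plus strand, 4 exons), Gas6 (ENSMUSG00000031451, chr8:13465374-13494490, minus strand, 15 exons), Pf4 (ENSMUSG00000029373, chr5:90772435-90773383, plus strand, 3 exons) and Selenop (ENSMUSG00000064373, chr15:3268547-3280508, plus strand, 5 exons).

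Promoter sequence is shown for 4 genes at least 2-fold apart between the libraries over all macrophage-like cells, 3 of them higher in takinib (Chil3, Pf4 and Cd163) and Retnla lower. The sequences are RefSeq's, build GRCm38.p6, read 5′ to 3′ on the gene's own strand and ending before the annotated gene start; RefSeq promoter windows of 250 bases were matched for 9 of the 10 genes, with no entry for Lyve1. They lie at chr3:106167565-106167814 (Chil3, minus strand), chr16:48842359-48842550 (Retnla, plus strand), chr5:90772185-90772434 (Pf4, plus strand) and chr6:124304401-124304650 (Cd163, plus strand). Capitals mark matches to 4 motifs searched on both strands: TTC and GAA with any 4 bases between (the spacing bound by STAT6), TTC and GAA with any 3 bases between (the spacing of other STAT sites), TTGCNNAA (C/EBP type) and TGANTCA (AP-1 type).
Chil3 promoter: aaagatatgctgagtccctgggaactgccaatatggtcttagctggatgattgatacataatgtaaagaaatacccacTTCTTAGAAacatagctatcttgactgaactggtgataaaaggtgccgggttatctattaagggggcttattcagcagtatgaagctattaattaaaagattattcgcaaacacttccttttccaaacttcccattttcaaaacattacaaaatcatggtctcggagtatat
Retnla promoter: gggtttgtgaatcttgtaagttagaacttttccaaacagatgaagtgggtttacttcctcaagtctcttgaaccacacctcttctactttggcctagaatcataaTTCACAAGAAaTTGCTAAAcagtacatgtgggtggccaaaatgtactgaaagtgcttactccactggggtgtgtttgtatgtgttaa
Pf4 promoter: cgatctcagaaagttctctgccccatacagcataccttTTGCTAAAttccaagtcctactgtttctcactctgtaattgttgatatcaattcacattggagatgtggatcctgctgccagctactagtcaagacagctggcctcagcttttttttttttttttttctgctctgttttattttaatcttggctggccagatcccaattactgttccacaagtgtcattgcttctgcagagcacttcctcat
Cd163 promoter: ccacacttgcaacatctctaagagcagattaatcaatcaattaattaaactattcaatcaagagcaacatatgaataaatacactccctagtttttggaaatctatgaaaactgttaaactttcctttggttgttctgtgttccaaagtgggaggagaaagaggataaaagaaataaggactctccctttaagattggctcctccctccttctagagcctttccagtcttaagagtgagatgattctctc
The Chil3 window held TTCTTAGAA with its first base 172 bases before RefSeq's transcript start, and the Retnla window held TTCACAAGAA at 145 bases and TTGCTAAA at 134 bases. The Pf4 window held TTGCTAAA at 212 bases, and the Cd163 window held none of these letters. Among the windows not printed, Selenop's held TTCTAAAGAA at 216 bases and a Folr2 window TGACTCA at 74 bases. Over 32851 promoters of the same length, 5.85% held the motif with 4 bases between TTC and GAA, 7.02% that with 3, 9.56% TTGCNNAA and 6.75% TGANTCA, so such matches occur widely.

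Filtering left 9558 cells in vehicle (42000538 UMIs) and 25183 in takinib (119726977 UMIs), of which 4604 and 6246 were macrophage-like. With 1 library per group, no difference could be tested. Square brackets hold 95% intervals, which cover counting error alone and say nothing of the spread between mice. The libraries stood apart in ways that touch these genes. Takinib macrophage-like cells held 7903 CPM (counts scaled to a sum of 1000000 UMIs) of the 9 neutrophil markers against 352 in vehicle, and 0 of the 9 were at 0 in either library. Their median depth was 6156 against 3933 UMIs. Among vehicle macrophage-like cells, 11.1% held Xist, the transcript of the silenced X, without Y-linked UMIs (512 cells) and 28.0% held Y-linked UMIs without Xist (1289 cells), whereas takinib held 0 Y-linked UMIs. Both kinds of vehicle cell are set beside takinib below. The part of sex, depth or neutrophil RNA in the differences was not tested. The files shared 400 barcodes among those past the filters.

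Macrophage-like cells carried the macrophage markers C1qa, Csf1r, Adgre1 and 9 others, which summed to 40478 CPM in vehicle cells and 24129 CPM in takinib cells. They fell into 6 clusters, made without the 10 genes and called by their leading genes. The Apoe Ear2 cluster held 2431 vehicle and 906 takinib cells, and the class II-high cluster, led by genes of antigen presentation, 1376 and 91. The Saa3 Arg1 cluster held 48 and 2848 cells, the Gpnmb cluster 366 and 1904, the Ccl8 Fcna cluster 187 and 319, and the dividing Pclaf Hist1h2ap cluster 196 and 178. Vehicle was thus mostly Apoe Ear2 and class II-high cells (52.8% and 29.9%) and takinib mostly Saa3 Arg1 and Gpnmb cells (45.6% and 30.5%). A difference over all macrophage-like cells can restate this change of makeup, so each of the 10 genes is also given within clusters of at least 100 cells in both libraries. Both kinds of vehicle cell were also spread unevenly: 50.5% of vehicle Gpnmb cells but 9.30% of vehicle Apoe Ear2 cells were of the Xist-only kind.

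Over all macrophage-like cells, Cd163, Lyve1, Chil3, Pf4 and Selenop were at least 2-fold higher in takinib and Retnla at least 2-fold lower. Mrc1 was higher by less than 2-fold, Gas6 somewhat lower, and the intervals of Folr2 and Timd4 included no difference. These are 5 of 10 members higher, where 6.52% of the 12415 genes with at least 50 summed counts were, and 1 of 10 lower, where 7.24% were. The members' median log2 ratio of takinib over vehicle CPM was 0.83, beside -0.05 over all genes tested. Selenop was at least 2-fold higher under all 20 alternative treatments of the data, Cd163 under 19, Chil3 and Pf4 under 18 and Lyve1 under 15. Retnla was at least 2-fold lower under 14. The direction turned under 1 treatment each for Chil3 (0.894) and Lyve1 (0.690). With no doublets removed, the 5 members higher became 2.

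**Figure D1:**
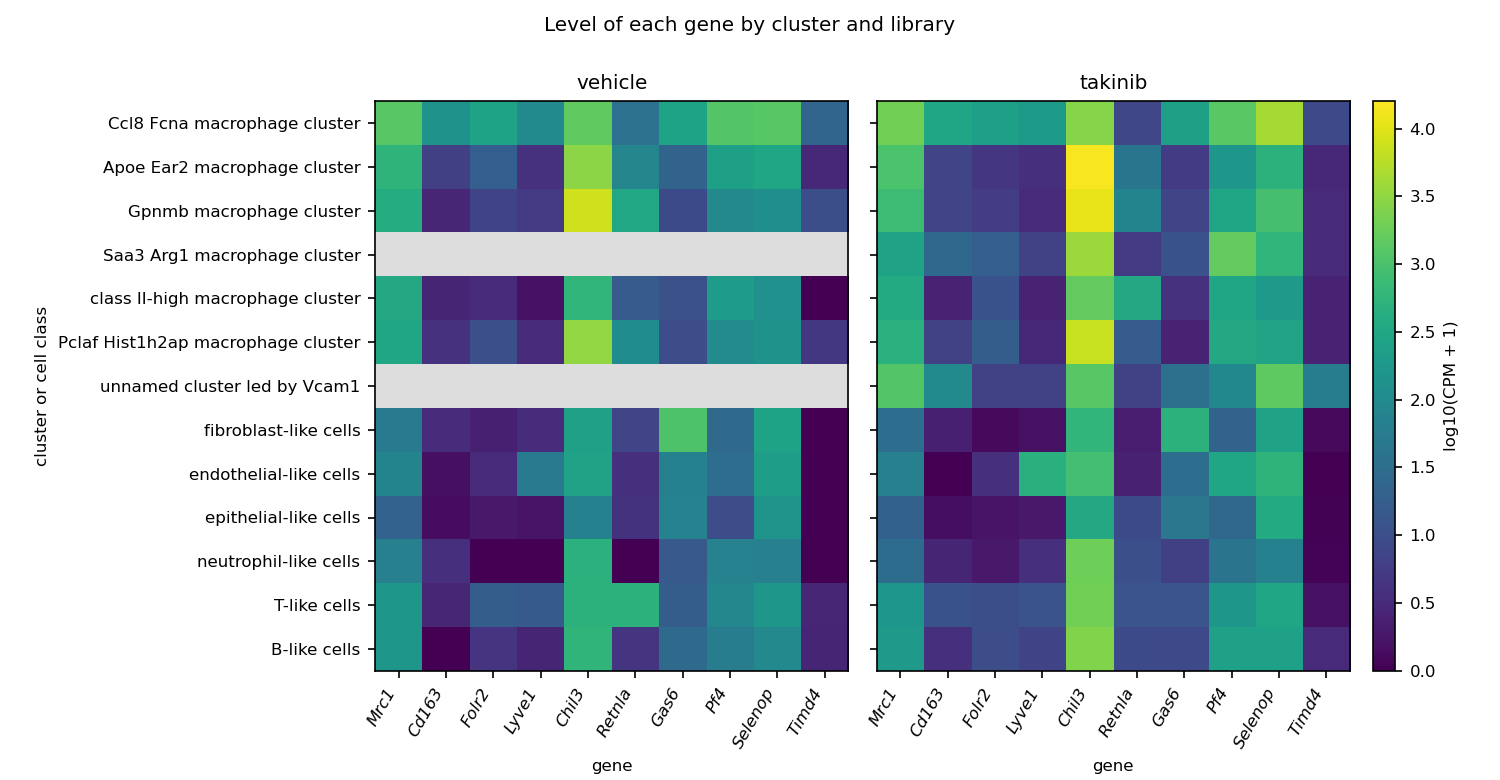
Level of the 10 genes, as log10 of CPM plus 1 (colour), in each cluster or cell class (rows) of the vehicle (left) and takinib (right) library; grey rows had fewer than 50 cells. The Ccl8 Fcna row is bright for Mrc1, Cd163, Folr2, Pf4 and Selenop in both libraries, Chil3 is bright in the Gpnmb and Apoe Ear2 rows, and Gas6 is brightest in fibroblast-like cells.

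A large part of macrophage Cd163, Folr2 and Lyve1 UMIs lay in the small Ccl8 Fcna cluster. Its leading genes outside the 10 included Ccl8, Fcna, Cbr2, Ccl12 and Stab1. Cd163, the receptor that clears haemoglobin bound to haptoglobin, stood at 138 CPM there in vehicle, and the next cluster, Apoe Ear2, had 5.27 CPM. In takinib it stood at 294 CPM there, above the 25 CPM of the next macrophage-like cluster, Saa3 Arg1. The Ccl8 Fcna cluster held 4.06% of vehicle and 5.11% of takinib macrophage-like cells, but 55.0% and 49.6% of their Cd163 UMIs.

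In macrophage-like cells as a whole, 160 Cd163 UMIs were counted in vehicle and 1200 in takinib, or 7.95 and 27.6 CPM. Takinib was higher by a ratio of 3.48 [2.94, 4.12]. Within the Ccl8 Fcna cluster the ratio was 2.12 [1.70, 2.69], and within the Gpnmb cluster 3.56 [1.35, 13.3] on 4 vehicle and 104 takinib UMIs. The Ccl8 Fcna ratio turned to 0.784 when the 10 genes were kept among those used for clustering. In the Apoe Ear2 cluster, where levels were low, the ratio was 1.24 [0.761, 1.99]. The level was alike in both kinds of vehicle cell, 7.29 CPM with Xist only and 7.78 with Y-linked UMIs only, so takinib was higher than either by ratios of 3.79 and 3.55. A few cells weighed on the takinib sum: 32 takinib cells with 10 or more Cd163 UMIs held 45.4% of them.

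Mrc1 encodes the mannose receptor, which takes up glycoproteins and microbial sugars. It was spread far more widely than Cd163. Its level was highest in the Ccl8 Fcna cluster, at 1276 CPM in vehicle and 2054 CPM in takinib, but the cluster held only 8.67% and 15.3% of macrophage Mrc1 UMIs. Mrc1 over all macrophage-like cells stood at 465 CPM in vehicle and at 624 in takinib, a ratio of 1.34 [1.31, 1.38]. Within clusters the difference was larger than in the sum: 1.61 [1.49, 1.74] in Ccl8 Fcna, 1.96 [1.88, 2.04] in Apoe Ear2, 1.93 [1.80, 2.07] in Gpnmb and 1.64 [1.452, 1.845] in Pclaf Hist1h2ap cells. The Saa3 Arg1 cluster, which made up much of takinib, had 266 CPM, and without that cluster the ratio was 1.91.

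Mrc1 was also less even across takinib cells. In vehicle, 45 macrophage-like cells held 10 or more Mrc1 UMIs and 5.72% of the total, whereas in takinib 906 such cells held 56.1%. Takinib cells were also deeper. At 1000 UMIs per cell the share with an Mrc1 UMI was 36.6% [35.2, 38.0] in vehicle and 35.1% [33.9, 36.3] in takinib. The 2 kinds of vehicle cell had nearly equal levels, 466 CPM with Xist only and 454 with Y-linked UMIs only.

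Folr2, a folate receptor carried by resident macrophages, had 45.1% of its macrophage UMIs in the Ccl8 Fcna cluster in vehicle and 50.9% in takinib. It was not higher there in takinib, and stood at 267 CPM in vehicle and 230 CPM in takinib, a ratio of 0.861 [0.721, 1.03] whose interval includes 1. With the 10 genes kept among those used for clustering, that ratio was 0.327. The next macrophage cluster had 17.1 CPM in vehicle (Apoe Ear2) and 17.3 CPM in takinib (Saa3 Arg1). In macrophage-like cells as a whole it stood at 18.7 and 21.1 CPM, a ratio of 1.13 [0.998, 1.27]. Within the Apoe Ear2 cluster it was lower in takinib, 3.70 against 17.1 CPM, a ratio of 0.217 [0.123, 0.358]. There, vehicle cells with Xist only had 4.56 CPM on 4 UMIs, near the takinib level, and those with Y-linked UMIs only 18.2 CPM. Folr2 differed between the kinds of vehicle cell, 6.48 CPM with Xist only against 25 with Y-linked UMIs only, and takinib over the first was 3.26 but over the second 0.842.

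Lyve1, a hyaluronan receptor, marks both a perivascular kind of resident macrophage and lymphatic endothelium. In vehicle its level was 97.5 CPM in the Ccl8 Fcna cluster and 51.5 CPM in endothelial-like cells. In takinib the order was the other way, 192 CPM in Ccl8 Fcna and 460 CPM in endothelial-like cells. The Ccl8 Fcna cluster held 57.9% of macrophage Lyve1 UMIs in vehicle and 71.6% in takinib.

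Lyve1 in macrophage-like cells as a whole stood at 5.32 CPM (107 UMIs) in vehicle and 12.5 CPM (542 UMIs) in takinib, a ratio of 2.35 [1.90, 2.92]. Inside the Ccl8 Fcna cluster the ratio was 1.97 [1.501, 2.614], but 0.482 when the 10 genes were kept among those used for clustering. Takinib lay above both kinds of vehicle cell, which had 1.22 CPM with Xist only and 5.29 with Y-linked UMIs only. With the cells that held any neutrophil marker UMI left out, the direction over macrophage-like cells turned, to 0.690, but only 72 takinib cells then remained. The endothelial difference followed a small number of lymphatic cells. Endothelial-like cells with at least 2 of the lymphatic markers Prox1, Flt4, Mmrn1, Ccl21a, Reln and Pdpn were 50 of 715 in vehicle and 20 of 103 in takinib, and they held 103 of 110 and 316 of 323 of the endothelial Lyve1 UMIs.

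Timd4, a phosphatidylserine receptor of long-lived resident macrophages, was near the limit of detection, with 57 UMIs in vehicle and 104 in takinib macrophage-like cells. These gave 2.83 and 2.40 CPM, a ratio of 0.845 [0.606, 1.19]. The ratio was 0.329 against vehicle cells with Xist only and 1.28 against those with Y-linked UMIs only. In takinib its highest level, 59.1 CPM, lay outside the macrophage-like class, in 123 cells led by Vcam1, Cd5l, Slc40a1 and haemoglobin genes. That cluster held 0 vehicle cells and stayed unnamed because erythroid and macrophage markers scored close together. It also had 1190 CPM of Mrc1, 102 CPM of Cd163 and 1455 CPM of Selenop, each second to the Ccl8 Fcna cluster among the 20 takinib clusters and classes.

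**Figure D2:**
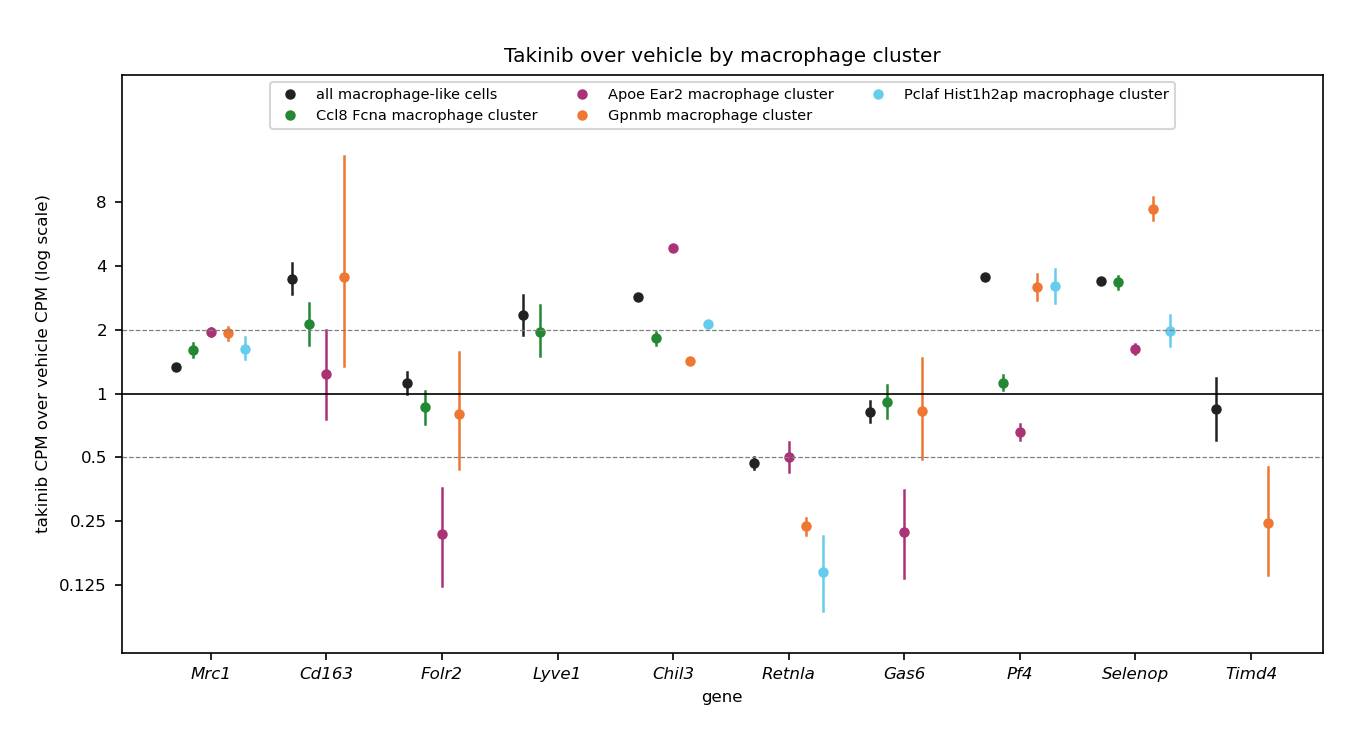
Ratio of takinib over vehicle CPM (vertical axis, log scale) for each gene over all macrophage-like cells (black) and within the 4 clusters with at least 100 cells in both libraries (colours), where at least 50 UMIs were counted; bars are 95% counting intervals and dashed lines mark 2-fold. Selenop and Mrc1 lie above 1 in every cluster shown, Retnla below 1, and Pf4 spans 0.659 in Apoe Ear2 to 3.23 in Pclaf Hist1h2ap cells.

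Among the secreted proteins, Selenop, the plasma carrier of selenium that tissues take up by endocytosis, was higher in takinib in every cluster compared. It was highest in the Ccl8 Fcna cluster, at 1303 CPM in vehicle and 4371 CPM in takinib, a ratio of 3.36 [3.12, 3.61]. Within Gpnmb cells Selenop stood at 123 and 920 CPM, a ratio of 7.47 [6.61, 8.46]. The ratio was 1.63 [1.54, 1.72] in Apoe Ear2 and 1.99 [1.68, 2.35] in Pclaf Hist1h2ap cells. The size of the difference thus varied between clusters by more than counting error, with the largest in Gpnmb cells.

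Selenop in macrophage-like cells as a whole stood at 249 CPM in vehicle and 848 CPM in takinib, a ratio of 3.40 [3.30, 3.50]. Takinib exceeded both kinds of vehicle cell, which had 192 CPM with Xist only and 272 with Y-linked UMIs only. In fibroblast-like cells, another source of the transcript, the levels were 273 and 258 CPM, a ratio of 0.944 [0.859, 1.04]. In epithelial-like cells, by contrast, Selenop was 2.54-fold [2.41, 2.68] higher in takinib, with 7811 takinib UMIs.

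Pf4 encodes platelet factor 4, a chemokine of platelets that macrophages also make. In vehicle it was highest in the Ccl8 Fcna cluster, at 1175 CPM, and in takinib in the Saa3 Arg1 cluster, at 1534 CPM, with Ccl8 Fcna next at 1322 CPM. Over all macrophage-like cells it stood at 240 CPM in vehicle and 858 CPM in takinib, a ratio of 3.57 [3.46, 3.68]. The Saa3 Arg1 cluster held 75.6% of the takinib UMIs, and without that cluster the ratio was 1.56. Vehicle cells with Xist only had 106 CPM and those with Y-linked UMIs only 215 CPM, so takinib was above both, by ratios of 8.12 and 3.999.

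Within clusters the direction for Pf4 differed when all vehicle cells were used. It was higher in takinib in Gpnmb cells, 304 against 94.9 CPM, a ratio of 3.20 [2.78, 3.70], and in Pclaf Hist1h2ap cells, a ratio of 3.23 [2.69, 3.89]. In the Ccl8 Fcna cluster the ratio was 1.13 [1.04, 1.22], and in Apoe Ear2 cells takinib was lower, 157 against 238 CPM, a ratio of 0.659 [0.605, 0.717]. Against vehicle Apoe Ear2 cells with Xist only, which had 83.2 CPM on 73 UMIs, takinib was higher, a ratio of 1.89. Against Xist-only vehicle cells the ratios in Gpnmb and Pclaf Hist1h2ap cells were 11.6 and 12.7, on 28 and 4 vehicle UMIs, so all 3 clusters lay above 1 in that comparison. Most Pf4 UMIs lay in a minority of cells. In the takinib Saa3 Arg1 cluster, 1485 of 2848 cells held a Pf4 UMI, but 575 cells with 10 or more held 90.8% of the total.

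Chil3, a secreted chitinase-like lectin also made by neutrophils and their precursors, was higher in takinib than in vehicle as a whole but not than in vehicle cells with Xist only. It stood at 2674 CPM in vehicle and 7696 CPM in takinib macrophage-like cells, a ratio of 2.88 [2.85, 2.90]. Vehicle cells with Xist only had 8608 CPM and those with Y-linked UMIs only 1670 CPM, so the takinib level lay below the first, a ratio of 0.894, and above the second, a ratio of 4.61. The same gap within vehicle was seen in Apoe Ear2 cells (8758 against 2267 CPM), Gpnmb cells (10865 against 2753 CPM) and class II-high cells (2403 against 418 CPM).

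The gap was not limited to macrophages. Vehicle T-like cells with Xist only had 2415 CPM of Chil3 and those with Y-linked UMIs only 226 CPM (25 and 58 cells), and endothelial-like cells had 720 and 101 CPM (69 and 264 cells). In epithelial-like cells it was the other way round, at 47.2 and 65.9 CPM (202 and 764 cells). Takinib T-like and B-like cells, which are not known to make Chil3, had 2009 and 2541 CPM.

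By cluster, Chil3 was highest in Gpnmb cells in vehicle, at 7951 CPM, and in Apoe Ear2 cells in takinib, at 14249 CPM. In Gpnmb cells, where 50.5% of the vehicle cells were of the Xist-only kind, takinib had 11403 CPM, a ratio of 1.43 [1.41, 1.46], which was 1.05 against Xist-only vehicle cells. In Apoe Ear2 cells vehicle had 2912 CPM, a ratio of 4.89 [4.83, 4.96], which was 1.63 against Xist-only cells. In Pclaf Hist1h2ap cells the ratio of 2.13 [2.06, 2.21] became 0.998 against Xist-only cells. In the Ccl8 Fcna cluster Chil3 was lower than in these 3 clusters, at 1472 and 2693 CPM, a ratio of 1.83 [1.71, 1.96].

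Chil3 has a close copy, Chil4, whose transcript was identical at 1452 of 1538 aligned bases (94.4%) and at 178 of 199 over the 3′ end that such libraries read. Reads could be split between such copies, yet only 3 vehicle and 20 takinib Chil4 UMIs were counted in macrophage-like cells.

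**Figure D3:**
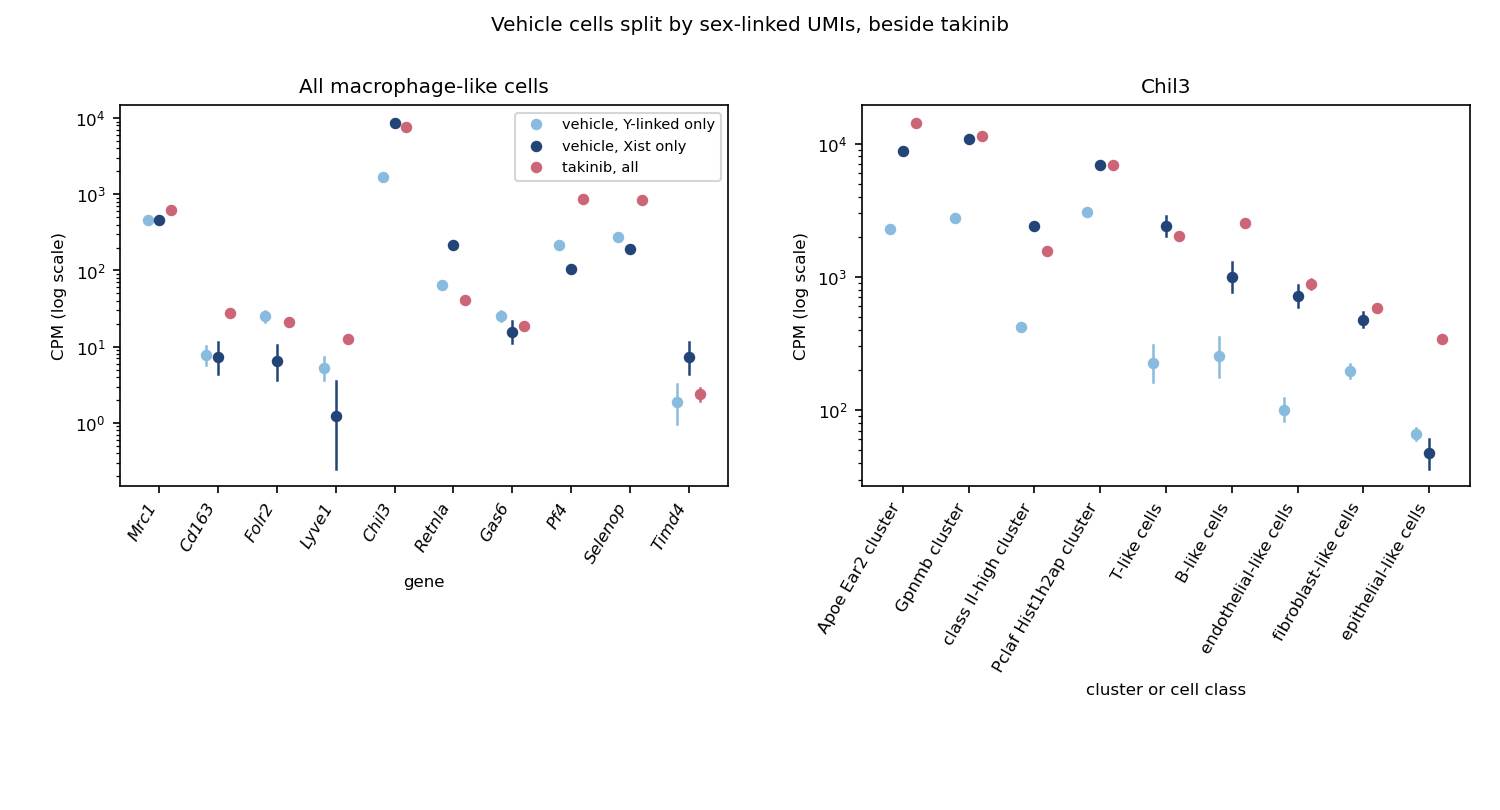
CPM (log scale) in vehicle cells with Y-linked UMIs only (light blue), vehicle cells with Xist only (dark blue) and all takinib cells (red), for each gene over all macrophage-like cells (left) and for Chil3 by cluster or cell class (right); bars are 95% counting intervals. For Chil3 the takinib point lies near the Xist-only point, 7696 beside 8608 CPM on the left, whereas for Cd163, Pf4 and Selenop it lies above both vehicle points.

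Retnla, a resistin-like secreted protein strongly induced by interleukin 4, was the only member at least 2-fold lower in takinib, at 86.7 CPM in vehicle and 40.9 CPM in takinib, a ratio of 0.472 [0.441, 0.504]. Almost all of it came from a handful of cells. In vehicle, 21 of 4604 macrophage-like cells, those with 10 or more Retnla UMIs, held 1632 of 1745 UMIs, and in takinib 29 such cells of 6246 held 1546 of 1777. Without those cells the ratio was 0.947. Over all macrophage-like cells takinib lay below both kinds of vehicle cell, which had 215 CPM with Xist only and 65.3 with Y-linked UMIs only. Their order differed by cluster: 463 and 28.5 CPM in Gpnmb cells, but 34.2 and 118 CPM in Apoe Ear2 cells. Takinib lay between them in both clusters, at 78.3 and 41.2 CPM. At 1000 UMIs per cell, the share of cells with a Retnla UMI was 0.977% [0.714, 1.31] in vehicle and 1.14% [0.889, 1.43] in takinib, and takinib T-like cells had a like share of 1.44%.

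Gpnmb cells held 40.9% of macrophage Retnla UMIs in vehicle and 69.6% in takinib, where 23 of those 29 cells were Gpnmb cells and held 1145 UMIs. Vehicle Gpnmb cells had 331 CPM, of which 6 cells held 701 of 714 UMIs, against 78.3 CPM in takinib. In the class II-high cluster the order was the other way, 15.4 CPM in vehicle and 342 CPM in takinib, where 4 of 91 cells held 221 of 228 UMIs. In vehicle the highest level of any class, 491 CPM in T-like cells, came from 2 cells that held all 266 UMIs.

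Gas6, the ligand that bridges phosphatidylserine to the Axl and Mertk receptors, was chiefly a fibroblast transcript. Fibroblast-like cells held 66.6% of its UMIs in vehicle and 47.0% in takinib. Vehicle fibroblast-like cells had 1079 CPM and takinib ones 496 CPM, a ratio of 0.459 [0.433, 0.487]. Among macrophages the Ccl8 Fcna cluster stood out, at 269 and 247 CPM, a ratio of 0.917 [0.769, 1.10]. With the 10 genes kept among those used for clustering, that ratio was 0.328. Over all macrophage-like cells Gas6 stood at 23.0 and 18.9 CPM, a ratio of 0.823 [0.733, 0.924]. The ratio was above 1 against vehicle cells with Xist only and below 1, at 0.751, against those with Y-linked UMIs only. In Apoe Ear2 cells takinib was lower, 4.58 against 20.5 CPM, a ratio of 0.223 [0.135, 0.351].

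Read cluster by cluster, the members did not differ together. In the Ccl8 Fcna cluster, 2 of 8 members tested were at least 2-fold higher in takinib (Cd163 and Selenop), where 5.94% of genes were, and 0 were lower, where 3.31% were. In Gpnmb cells 3 of 9 were higher (Cd163, Pf4 and Selenop; 7.8% of genes) and 2 lower (Retnla and Timd4; 2.03%). In Apoe Ear2 cells 1 of 8 was higher (Chil3; 3.23%) and 2 lower (Folr2 and Gas6; 3.3%). In Pclaf Hist1h2ap cells 2 of 5 were higher (Chil3 and Pf4; 3.83%) and 1 lower (Retnla; 1.84%). The cluster counts depended on how clusters were drawn. When the 10 genes were kept among the genes used for clustering, the cluster nearest to Ccl8 Fcna held 153 vehicle and 1005 takinib cells, with 1 member higher and 5 lower, and Cd163 turned to a ratio of 0.784.

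Cells with Cd163 held Mrc1 and Selenop more often than cells without it. At 1000 UMIs per cell, 36 vehicle and 124 takinib macrophage-like cells held Cd163. Of these, 77.8% and 67.7% held Mrc1, against 36.3% and 34.4% of cells without Cd163, and 75.0% and 76.6% held Selenop, against 21.7% and 34.8%. Chil3 was in 36.1% of vehicle cells with Cd163 and 36.2% without, and in 22% of vehicle cells with Folr2 and 36.5% without. In takinib it was in 56.5% of cells with Cd163 and 75.7% without, in 44.4% of the 117 cells with Folr2 and 75.9% without, and in 37.1% of the 70 cells with Lyve1 and 75.7% without. All 6 takinib cells with Timd4 held Chil3. Cells with UMIs of at least 2 of Cd163, Folr2, Lyve1 and Timd4 were rare. Exactly 2 were found in 15 vehicle cells, all in the Ccl8 Fcna cluster, and in 31 takinib cells, 22 of them there.

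The share of macrophage-like cells with a UMI, at 1000 UMIs per cell, was higher in takinib with intervals apart for 4 members, where 12.6% of genes were, and lower for 0, where 13.1% were. Cd163 was in 0.782% [0.548, 1.08] of vehicle and 1.99% [1.65, 2.36] of takinib cells. Chil3 was in 36.2% and 75.3%, Pf4 in 12.9% and 22.6%, and Selenop in 22.1% and 35.7%. Without thinning these were 2.19% and 5.16%, 51.9% and 89.4%, 25.6% and 44.1%, and 50.0% and 71.0%.

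T-like and B-like cells, which should lack these transcripts, are set beside as a background, in which free RNA, doublets and misassigned cells cannot be told apart. Their median depths were 1432 and 1638 UMIs in vehicle and 1910 and 1922 in takinib. Chil3 was in 13.2% of vehicle T-like cells and 30.5% of takinib ones, and in 13.2% and 37.6% of B-like cells, so this background also differed between libraries. In takinib, 115 of 1322 T-like cells held 10 or more Chil3 UMIs and 86.2% of the total. Pf4 was in 2.72% and 6.43% of T-like cells and Selenop in 14.0% and 15.1%, below the shares over all macrophage-like cells. By cluster, however, Selenop was in only 12.8% of vehicle Gpnmb cells, 12.8% of vehicle class II-high cells and 12.1% of takinib class II-high cells. For Retnla the takinib macrophage share was no higher than that of T-like cells.

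**Figure D4:**
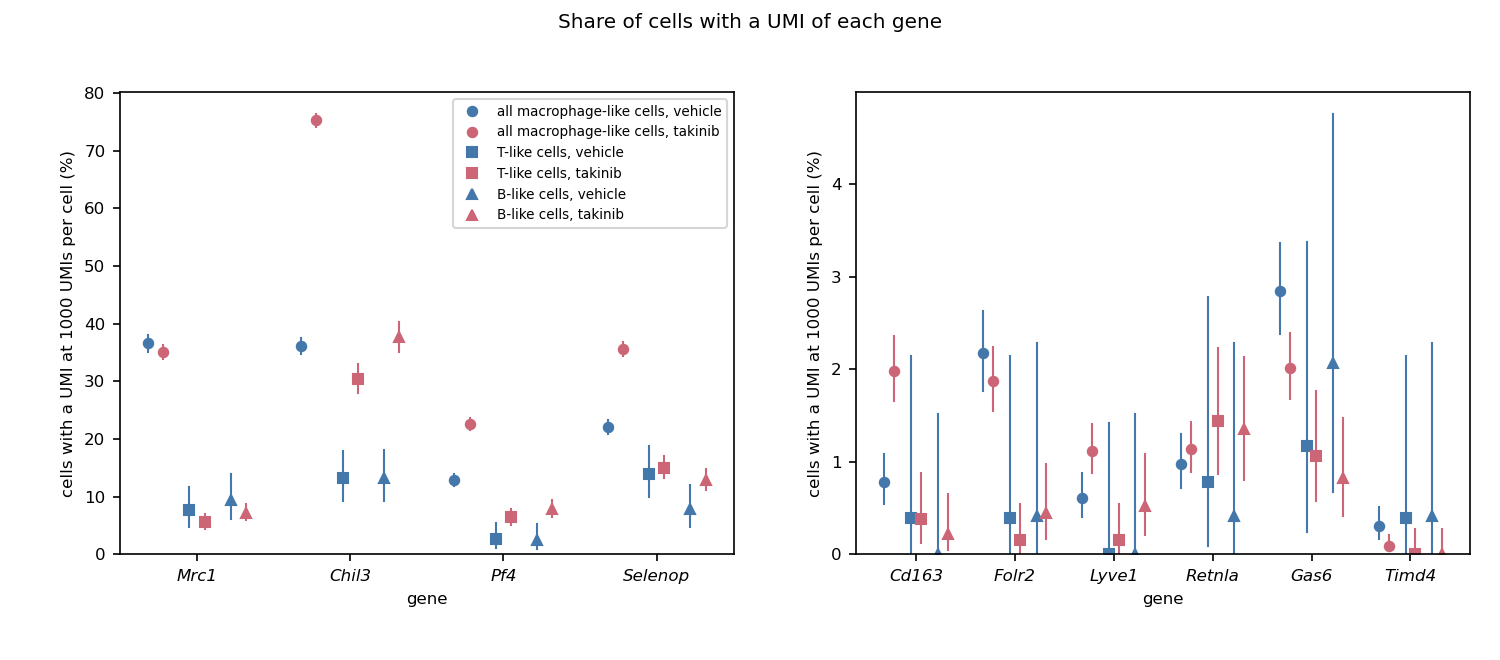
Share of cells with at least 1 UMI of each gene at 1000 UMIs per cell (%), for genes found in many cells (left) and in few (right, other scale), in macrophage-like (circles), T-like (squares) and B-like cells (triangles) of vehicle (blue) and takinib (red); bars are 95% Clopper-Pearson intervals. Chil3 in macrophage-like cells goes from 36.2% to 75.3%, and in B-like cells from 13.2% to 37.6%.

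Outside macrophages, Chil3 was the gene that differed in the most classes. With all vehicle cells used, its ratio of takinib over vehicle lay between 2.32 in fibroblast-like and 4.87 in epithelial-like cells. It was then at least 2-fold higher in all 7 other classes compared. Vehicle cells with Xist only had 2415 CPM in T-like, 720 in endothelial-like and 475 in fibroblast-like cells, against 2009, 884 and 579 CPM in takinib. In B-like and epithelial-like cells they had 1001 and 47.2 CPM, against 2541 and 340 CPM in takinib. In fibroblast-like cells 1 of 5 members tested was higher (Chil3; 6.35% of genes were) and 1 lower (Gas6; 10.7%). In endothelial-like cells 4 of 6 were higher (5.09% of genes), with Pf4 at 30.4 and 302 CPM and Lyve1 as above besides Chil3 and Selenop, and 1 lower (Gas6; 10.7%). In T-like cells 1 of 6 was higher (Chil3; 8.02%) and 1 lower (Retnla; 3.62%). Of the 4 members tested in B-like cells, 3 were higher (Chil3, Pf4 and Selenop; 9.92%) and 0 lower (5.36%).

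Epithelial-like cells had 4 of 6 higher (Chil3, Retnla, Pf4 and Selenop; 7.27%) and 0 lower (8.39%). Neutrophil-like cells had 1 of 6 higher (Chil3; 7.29%) and 2 lower (Mrc1 and Gas6), in a class where 39.7% of genes were lower. The Gas6 ratio there, 0.377 [0.156, 1.18] on 5 vehicle UMIs, had an interval that included no difference. Monocyte-like cells, the precursors of many macrophages, had 2 of 5 higher (Chil3 and Pf4; 11.3%) and 2 lower (Mrc1 and Retnla; 5.86%). Chil3 there stood at 1022 CPM in vehicle and 4898 CPM in takinib, and Mrc1 at 162 and 61.5 CPM, the opposite direction to that in macrophage-like cells. The vehicle Mrc1 level, on 70 UMIs, was no higher than in vehicle T-like and B-like cells, both at 168 CPM. The monocyte-like cluster may also be mixed, since its leading genes included Ccl22 and Ccr7 and its second-best score was for dendritic cells.

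Across cell classes, 8 of 10 members had their highest level in a macrophage-like cluster in vehicle, where 14.6% of genes did, and 7 of 10 in takinib, where 13.1% did. The exceptions were Gas6 (fibroblast-like) and Retnla (2 T-like cells) in vehicle, and Gas6, Lyve1 (endothelial-like) and Timd4 (the Vcam1 cluster) in takinib. Neighbours in the order of levels were apart beyond counting error for the top clusters of Mrc1, Cd163, Folr2, Lyve1, Chil3, Gas6, Pf4 and Selenop in both libraries. In vehicle, Timd4 was 22 CPM in Ccl8 Fcna and 9.26 CPM in Gpnmb cells, with intervals that overlapped.

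The genes most like each member were sought by Pearson's r of log2(CPM + 10) over 41 cluster-by-library profiles and 11798 genes, as a description, since profiles share libraries. Mrc1 was most like the complement genes C1qc (r = 0.953) and C1qb (0.951) and the phagocytic receptor gene Mertk (0.948). Cd163 and Folr2 were both most like Vsig4, a complement receptor of resident macrophages (0.919 and 0.879). Timd4 was most like C6 (0.890) and Cd5l (0.847), and Pf4 like C3ar1 (0.849) and Arg1 (0.844). Selenop was most like Glul (0.846), Chil3 like Mcemp1 (0.891), Gas6 like Lpar1 (0.828), Lyve1 like Afap1l1 (0.774) and Retnla like Ryr1 (0.719).

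Other genes of the same pathways were read in macrophage-like cells by the same 2-fold mark, past which 6.52% of all genes tested were higher and 7.24% lower. Counts of 1 in a list of 10 or 16 are near those shares. Of the genes for interleukin 4, interleukin 13, interleukin 10 and CSF1 ligands, receptors and factors, 2 of 16 tested were higher in takinib and 1 lower, with a median log2 ratio of 0.45. Spic, a factor of iron-recycling macrophages, was higher (0.298 to 1.84 CPM), as was Il10 (0.348 to 1.68 CPM). Irf4, a factor of alternative activation, was lower, at 17.8 and 7.02 CPM, and Il10ra stood at 121 and 71.1 CPM. Of the other alternative activation genes, 2 of 16 were higher and 6 lower, median -0.14. Within clusters, 2 of 13 were higher and 2 lower in Apoe Ear2, and 4 of 14 higher and 2 lower in Gpnmb cells. In Ccl8 Fcna 1 of 8 was higher and 0 lower, and in Pclaf Hist1h2ap cells 1 of 12 was higher and 2 lower. The shares over all genes in these clusters are given above. Over all macrophage-like cells the lectin gene Mgl2 went from 97.7 CPM in vehicle to 8.73 CPM in takinib and Pdcd1lg2 from 27.2 to 7.78 CPM, while Cd36, a lipid scavenger receptor, went from 10.4 to 46.7 CPM and Ch25h from 5.47 to 17.8 CPM. Mgl2 was a leading gene of the class II-high cluster (1376 vehicle and 91 takinib cells), so its sum can restate the change of makeup.

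Of the other resident macrophage genes, 6 of 21 were higher and 3 lower, median 0.01. Within clusters the median lay between -0.24 in Apoe Ear2 and 0.10 in Pclaf Hist1h2ap cells. The chemokine gene Ccl8 went from 9.0 to 91.4 CPM and F13a1, a clotting factor subunit, from 61.8 to 628 CPM, whereas the fractalkine receptor gene Cx3cr1 went from 92.4 to 18.9 CPM and Fcrls from 15.4 to 3.45 CPM. F13a1 was a leading gene of the Saa3 Arg1 cluster (48 vehicle and 2848 takinib cells), so its sum can restate the change of makeup. Of the genes for phosphatidylserine uptake and Gas6 receptors, 1 of 10 was higher, the bridging protein Mfge8 (72.1 to 208 CPM), and 2 lower, the Gas6 receptor Axl (409 to 128 CPM) and the integrin subunit Itgb5 (209 to 74.8 CPM), median -0.29. Itgav stood at 47.4 and 50.6 CPM.

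Of the selenoprotein genes and receptors, 1 of 16 was higher, Selenom (6.26 to 13 CPM), and 0 lower, median 0.17, so Selenop, at a log2 ratio of 1.77, lay above the range of that list, whose highest was 1.06. Sephs2, an enzyme of selenium supply, stood at 17.4 and 34.4 CPM, Gpx3 at 68.0 and 50.4 CPM and Txnrd2 at 19.0 and 12.7 CPM. Of the paralogs of the members, 3 of 7 tested were higher and 0 lower, median 0.84. They included Retnlg (5.02 to 222 CPM), itself a neutrophil marker, and Chil1 (0.298 to 46.8 CPM), while Pros1 stood at 67.4 and 55.5 CPM and Cd5l at 3.48 and 2.23 CPM. Chil1 was a leading gene of an unnamed cluster with 2 vehicle and 4333 takinib cells, in which neutrophil markers scored highest.

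The pro-inflammatory macrophage genes, set beside these for contrast, had 8 of 13 higher in takinib and 0 lower, median 1.29. Within clusters, 2 of 10 were higher in Apoe Ear2 (median 0.39) and 4 of 12 in Gpnmb cells (0.76). In Ccl8 Fcna 4 of 6 were higher (1.68) and in Pclaf Hist1h2ap cells 9 of 11 (1.47), with 0 lower in each cluster. Ptgs2, Ccl3 and Ccl4 of this list were also leading genes of a neutrophil-like cluster with 0 vehicle and 2794 takinib cells. The part of neutrophil RNA was not tested. Nos2, the inducible nitric oxide synthase, went from 1.79 to 181 CPM and Ptgs2 from 17.7 to 134 CPM, while the costimulatory genes Cd86 (54.1 and 46.1 CPM) and Cd80 (26.3 and 18.3 CPM) were not higher. Over the distinct genes of all lists, 23 were at least 2-fold higher and 12 lower.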

How the data were processed

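Single-cell 3′ RNA was measured in 1 vehicle and 1 takinib library of mouse tumour. The authors deposited unnormalised UMI counts, made with Cell Ranger 4 (vehicle) and 6.1.1 (takinib) per the file headers; the submitters' processing notes name mm10, Cell Ranger 2.1.1, STAR 2.0.4b, bcl2fastq, Subread and featureCounts 1.45. The vehicle matrix lists 704261 barcodes and 80850334 UMIs, the takinib matrix 34158 barcodes, none under 500 UMIs, and 139292875 UMIs. Groups were taken from the labels.

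Barcodes with at least 1000 UMIs, 500 genes and at most 20% mitochondrial UMIs were kept (9872 and 26790). Scrublet scores marked 3.18% of vehicle barcodes as doublets, and 314 were removed. In takinib the automatic threshold marked 0.00373%, so the highest 6% were removed (1607). Cells were clustered with scanpy 1.11.5 (scaled to 10000, 2000 variable genes without the 10 members, 30 components, 15 neighbours, Leiden resolution 1, seed 1) in Python 3.11.15, and named from marker genes; no correction between libraries was made.

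Counts were summed per cluster and library and scaled to CPM. Intervals are exact Poisson for CPM, exact conditional (Clopper-Pearson) for ratios and Clopper-Pearson for shares, with scipy 1.17.1. A gene was tested with at least 50 summed counts over both libraries and called at 2-fold. These 3′ counts are not per length, so levels of different genes are not compared. Named were the 10 members, the 2 highest and 2 lowest ratios of each list, and up to 3 genes most like each member. The members, lists and most settings were chosen with earlier results of these data known. The scripts were tested on simulated counts. Alternatives covered filters, doublets, clustering, scaling, depth, low counts, neutrophil RNA and sex-linked UMIs.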

Additional observations from a re-analysis of the deposited data

Results flagged for a closer look

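The ratio of takinib over vehicle Pf4 CPM differed between macrophage clusters, with counting intervals on opposite sides of 1. It was 3.20 in Gpnmb cells, 3.23 in Pclaf Hist1h2ap cells and 1.13 in Ccl8 Fcna cells, but 0.659 in Apoe Ear2 cells. Against vehicle cells with Xist only it was above 1 in Apoe Ear2 cells too, at 1.89. With 1 library per group the difference between clusters was not tested.

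Chil3 was also present in vehicle barcodes outside the analysis. The 376273 barcodes with 1 to 99 UMIs held 544 Chil3 UMIs among 651323, or 835 CPM [767, 908], beside 1451 CPM in all kept vehicle cells. Vehicle macrophage-like cells had 2674 CPM of Chil3. Selenop stood at 249 CPM in these barcodes and Cd163 at 7.68 CPM on 5 UMIs, beside 249 and 7.95 CPM in vehicle macrophage-like cells. Mrc1 and Pf4 stood at 261 and 101 CPM, below the 465 and 240 CPM of vehicle macrophage-like cells. The takinib matrix has no barcodes that shallow, so these values were not measured there.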

How the results depend on the processing

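Each group is 1 library, so no replicate could be left out. No paired analysis was possible because each group has 1 library. Summary counts stayed within 1.5 times in 95 cases and moved in 31; single values and medians were alike in 310, moved in 157 and, among values at least 2-fold apart, changed direction in 4. Members at least 2-fold higher over macrophage-like cells (main value 5) became 2 with no doublets removed, where a class II-high cluster lost its name and 2125 vehicle cells remained, and 3 with 4 clusters weighted equally. Members lower (1, Retnla) became 0 with 10 CPM added, at 2000 UMIs and 1000 genes, thinned to 1000 UMIs, against Y-only vehicle cells, without cells of 10 or more Retnla UMIs and without the Saa3 Arg1 cluster. They became 2 with no doublets removed, with classes from each cell's own markers, against Xist-only vehicle cells and with clusters weighted equally. List genes (23 higher, 12 lower) became 15 and 5 with 10 CPM added. With the members kept for clustering, those higher and lower in Ccl8 Fcna (2 and 0) became 1 and 5, and those higher in Apoe Ear2 (1) became 2. In Apoe Ear2, Xist-only vehicle cells gave 0 higher and 0 lower, as Folr2 and Gas6 fell under 50 summed UMIs there (Gas6 22.8 CPM against 4.58 in takinib), and leaving out cells with neutrophil UMIs gave 3 higher. In Gpnmb, members lower (2) became 1 when thinned, with states from each cell's own markers, without neutrophil UMIs and without Retnla-rich cells; in Pclaf Hist1h2ap (1) they became 0 when thinned, against Xist-only cells and without Retnla-rich cells. Shares with a UMI (4 higher, 0 lower) became 7 and 1 with all UMIs, and 1 was lower at 2000 UMIs and against Xist-only cells. Of values at least 2-fold apart, directions turned for Chil3 against Xist-only cells (0.894 over macrophages, 0.998 in Pclaf Hist1h2ap), Lyve1 without neutrophil UMIs (0.690) and Cd163 in Ccl8 Fcna with the members kept (0.784). Values under 2-fold also crossed 1, among them, with the members kept, Retnla in Apoe Ear2 (0.503 to 3.70) and Lyve1 (1.97 to 0.482) and Mrc1 (0.959) in Ccl8 Fcna, Pf4 in Apoe Ear2 against Xist-only cells (0.659 to 1.89), and over macrophages Gas6 without neutrophil UMIs (0.823 to 2.00), Folr2 with no doublets removed (1.13 to 0.598) and Timd4 with classes from own markers (0.845 to 1.496). Of 20 alternatives, Lyve1 stayed at least 2-fold higher under 15 and Retnla at least 2-fold lower under 14. Except where the construction shows it (fewer cells or genes), the cause was not tested. The settings with Y-only vehicle cells, without Retnla-rich cells, neutrophil UMIs or the Saa3 Arg1 cluster, and with equal weights were chosen after seeing the data. Depth limits Timd4, Lyve1 and Cd163 outside the Ccl8 Fcna cluster, where clusters held few UMIs.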
